A study of Mus musculus with 64 samples.

Results

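Cd22, Cd79a, Cd79b, Ms4a1, Jchain, Mzb1 and Derl3 are 7 mouse genes used to recognise B lymphocytes and the antibody-secreting plasma cells that B cells become. They were taken by symbol, through their NCBI gene IDs, from a table of 36332 gene IDs, and all 7 were found with reads. RNA sequencing libraries (64 in all, in 12 groups) covered 3 tissues, skeletal muscle, liver and omental fat (adipose tissue), from mice of 5 or 20 months in which Myc was inactivated body-wide (KO) or left intact (WT). KO mice carried a tamoxifen-activated Cre (cre/ERT2) at Gt(ROSA)26Sor, a locus active in most cell types, and the floxed Myc allele Myctm2Fwa, in a cross of B6.129 lines, and WT mice were labelled C57/B6. Mice of both genotypes are labelled as given tamoxifen by intraperitoneal injection on 5 days (75 mg/kg in corn oil) at weaning, at a weight of 15 g or more, so the KO and WT groups differ in strain background and in Cre as well as in Myc. The young groups held 6 libraries each, except KO muscle with 4, and the old groups held 5 each. The labels give each library its own code (K or W for genotype, F, L or S for tissue) and do not say that each came from a separate mouse, so p-values measure the spread between these libraries.

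B cells carry an antigen receptor made of a membrane immunoglobulin and a pair of signalling chains, and they are stored in lymphoid organs and, in the abdomen, in the omentum, where fat-associated clusters of lymphocytes collect cells from the peritoneal fluid. On activation some B cells become plasma cells, which shut down much of the B cell programme, enlarge the endoplasmic reticulum and secrete antibody. Cd79a and Cd79b encode the signalling chains, Cd22 an inhibitory co-receptor that binds sialic acids, and Ms4a1 the surface protein CD20, which plasma cells lose. Jchain encodes the joining chain of polymeric antibodies, Mzb1 an endoplasmic reticulum protein that helps antibody assembly, and Derl3 a derlin that takes part in the disposal of misfolded proteins. In GRCm38.p6 the B cell genes lie at chr7:30865404-30880342 (Cd22, gene ID 12483), chr7:24897497-24901858 (Cd79a, 12518), chr11:106311341-106314562 (Cd79b, 15985) and chr19:11249679-11266149 (Ms4a1, 12482). The plasma cell genes lie at chr5:88519809-88527897 (Jchain, 16069), on chromosome 18 (Mzb1, 69816) and at chr10:75893398-75895941 (Derl3, 70377).

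Library depth was 15.4 to 28.5 M reads on genes (M), and values are the deposited read signal per library, called CPM in the file and here. Adipocyte markers summed to 2400.4 to 9374 CPM in adipose libraries, hepatocyte markers to at least 93745 CPM in liver libraries and skeletal muscle markers to at least 110823 CPM in muscle libraries. Myc was at 2.87 to 10.5 CPM in KO and 11.2 to 22.8 CPM in WT adipose libraries at 5 months, and at 5.14 to 9.72 and 8.10 to 16.3 CPM at 20 months, where the groups overlapped. Xist was above 5 CPM in 12 libraries, 2 in each 5-month group, called libraries with Xist here. The 20-month libraries held at most 0.333 CPM of it. The sex covariate used below marks the 12 libraries with Xist as female, so sex is partly confounded with age. Crisp1, an epididymis gene, was above 10 CPM in 4 adipose libraries, of which 3 were KO and 1 WT, all at 5 months, and at 106 CPM in the young WT muscle library W5S5299. Of 256 gene IDs whose symbols begin like those of immunoglobulin genes, 1 had reads, the others being listed at 0 throughout. Whether that 1 is an immunoglobulin gene was not checked. Antibody heavy and light chains are thus not measured by these values, and Jchain, Mzb1 and Derl3 are grouped as plasma cell genes without them.

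Promoter sequences for 4 of the 7 members were available from RefSeq (GRCm38.p6), each running from 250 bases before to 50 bases after a start site. These 4 are shown because no sequence was available for the others. With age in WT adipose tissue Cd22 and Cd79a rose, while Jchain and Derl3 did not pass the test. Each sequence is written 5′ to 3′ on the strand of the gene, with capitals on motif matches. Cd22 (chr7:30878979-30879278, minus strand, a window inside the annotated gene), Cd79a (chr7:24897247-24897546, plus), Jchain (chr5:88527848-88528147, minus) and Derl3 (chr10:75893148-75893447, plus) read as follows.
Cd22: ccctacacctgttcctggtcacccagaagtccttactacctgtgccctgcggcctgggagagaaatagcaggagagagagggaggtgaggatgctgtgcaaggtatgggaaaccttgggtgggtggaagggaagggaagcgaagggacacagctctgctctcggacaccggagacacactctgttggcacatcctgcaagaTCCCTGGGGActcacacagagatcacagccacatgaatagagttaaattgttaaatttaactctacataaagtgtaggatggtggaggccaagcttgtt
Cd79a: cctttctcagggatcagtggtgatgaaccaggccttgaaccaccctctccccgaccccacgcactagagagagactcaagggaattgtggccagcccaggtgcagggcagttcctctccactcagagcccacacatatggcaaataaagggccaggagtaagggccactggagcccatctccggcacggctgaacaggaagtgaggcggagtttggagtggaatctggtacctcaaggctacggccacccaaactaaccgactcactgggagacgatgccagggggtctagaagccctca
Jchain: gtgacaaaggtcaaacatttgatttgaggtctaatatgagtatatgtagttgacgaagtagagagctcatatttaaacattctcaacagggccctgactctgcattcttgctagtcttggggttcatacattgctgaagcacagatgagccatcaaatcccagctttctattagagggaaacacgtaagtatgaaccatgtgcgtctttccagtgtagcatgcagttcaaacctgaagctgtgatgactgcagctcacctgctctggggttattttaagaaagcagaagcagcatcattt
Derl3: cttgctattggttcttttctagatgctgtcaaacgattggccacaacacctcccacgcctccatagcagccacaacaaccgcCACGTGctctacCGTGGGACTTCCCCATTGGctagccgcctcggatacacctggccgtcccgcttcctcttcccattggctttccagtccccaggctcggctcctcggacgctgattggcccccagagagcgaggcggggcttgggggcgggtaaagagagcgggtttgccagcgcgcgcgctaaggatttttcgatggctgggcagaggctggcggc

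Both strands of these windows were searched for 7 motifs. Cd22 held the palindrome TCCC, 2 bases of any kind and GGGA, bound by the B cell factor EBF1, 49 bases before its start site, a match present in 0.904% of 32851 promoters of the same length. Derl3 held the endoplasmic reticulum stress element (CCAAT, 9 bases of any kind and CCACG), which lies on the opposite strand and begins 156 bases before the start site, a match found in 0.119% of promoters. Derl3 also held an E-box, CACGTG, 168 bases before the start site, found in 7.15% of promoters and not overlapping the stress element. Neither Cd79a nor Jchain held any of the 7 sets of letters in these windows, which says nothing on the factors themselves. The other 4 motifs searched, with the share of promoters that hold them, were the octamer ATTTGCAT (1.74%), the other stress element, ATTGG, any base and CCACG (0.0365%), the cyclic AMP element TGACGTCA (1.79%) and the unfolded protein element core TGACGTGG (0.676%).

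In adipose tissue the 4 genes of the B cell surface were higher in old than in young WT mice. Ms4a1 was at 0.519, 0.352, 1.52, 0.636, 1.66 and 1.96 CPM in the WT libraries at 5 months, and at 10.4, 36.7, 8.26, 6.08 and 8.29 CPM at 20 months. All 5 old libraries lay above all 6 young ones. Cd22 was at a lowest value of 1.40, a median of 2.62 and a highest of 5.25 CPM in young WT libraries, against 14.6, 57.9, 12.9, 6.22 and 14.3 CPM in old ones, again without overlap. Cd79b ran from 1.56 to 7.35 CPM (median 2.63) in young WT libraries and was at 14.7, 41.3, 10.4, 7.58 and 9.77 CPM in old ones, also without overlap. Cd79a ran from 0.422 to 7.005 CPM (median 3.90) in young WT libraries and was at 14.2, 50.7, 12.9, 6.05 and 12 CPM in old ones. Here the lowest old library, W18F24, fell within the young range. Among the old WT libraries, W18F22 was the highest for all 4 genes and W18F24 the lowest. The share of all genes whose groups do not overlap was not counted, here or in the comparisons below.

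Of the 3 genes grouped here with plasma cells, Mzb1 showed a difference of that size in WT mice. Across adipose libraries Mzb1 followed Jchain (Pearson's r of 0.85, group means removed) as well as Cd79a and Cd79b (0.75 and 0.78). Which cells carry the rise of Mzb1 was not tested. Mzb1 was at 0.998, 0.422, 1.32, 1.31, 4.72 and 2.15 CPM at 5 months and at 17.4, 18.5, 8.47, 3.39 and 4.13 CPM at 20 months, with 3 of 5 old libraries above every young one. Jchain ran from 22.9 to 89.7 CPM (median 53.5) at 5 months and was at 143, 188, 107, 59.0 and 50.5 CPM at 20 months. The 2 lowest old Jchain libraries lay inside the young range. Derl3 ran from 0.399 to 13.7 CPM (median 1.77) at 5 months and was at 4.53, 5.50, 2.40, 2.11 and 2.35 CPM at 20 months, within the young range. The young range of Derl3 was set by W5F5299, and the next library was at 3.95 CPM. W5F5299 is the young WT adipose library with Crisp1 (791 CPM), and the part of epididymis tissue in its Derl3 value was not tested.

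**Figure D1:**
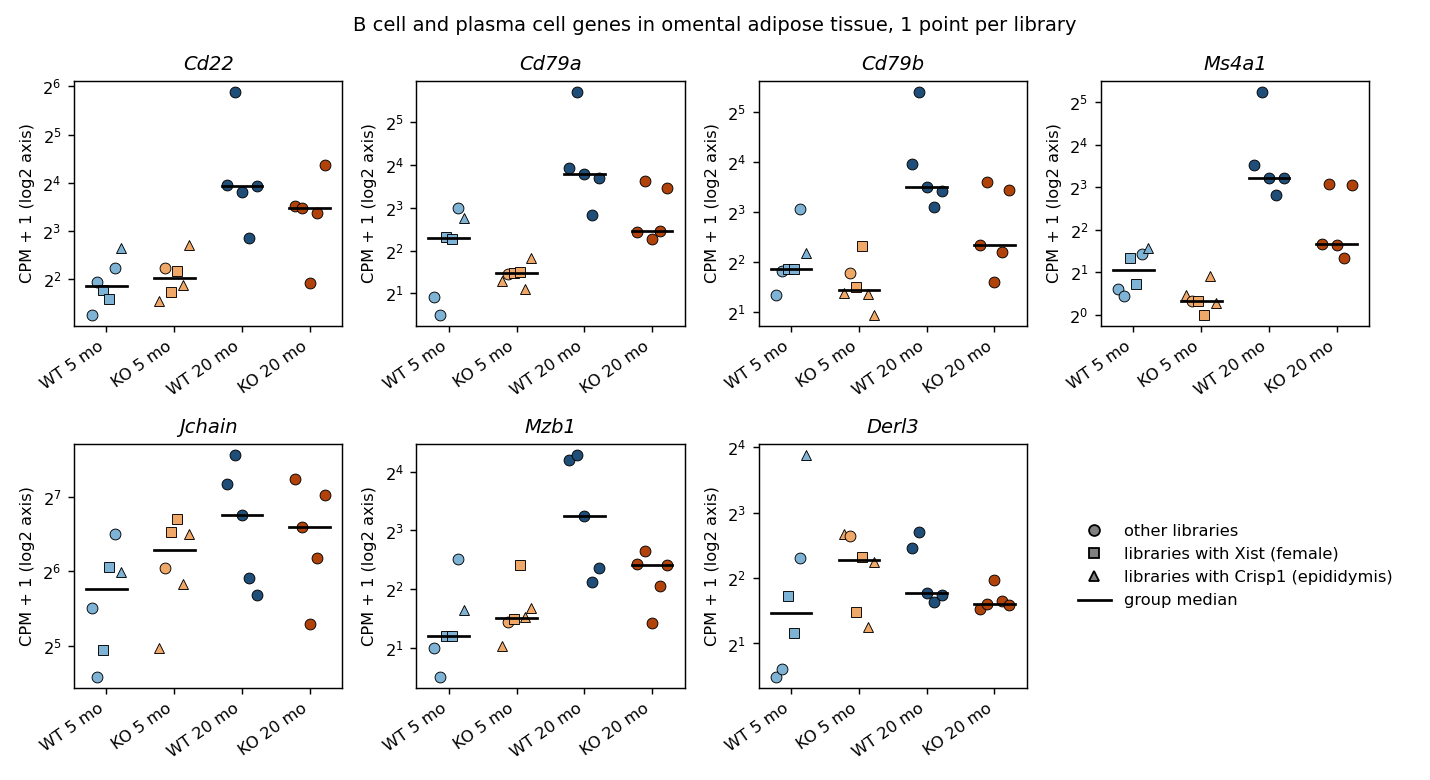
Level of each member in every adipose library (CPM + 1, log2 axis) by genotype and age, with bars at group medians, squares for libraries with Xist and triangles for libraries with the epididymis gene Crisp1. Ms4a1, Cd22 and Cd79b separate the 5 old WT libraries (dark blue) from the 6 young ones, while Derl3 and Jchain overlap between ages.

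On the log2(CPM + 1) scale, with limma and Benjamini-Hochberg adjustment over the 14286 genes tested in adipose tissue, which took in all 7 members, 5 of 7 members rose with age in WT mice (adjusted p under 0.05). Of all genes tested, 10.8% were called and 7.41% were called higher. Ms4a1 rose by 2.59 (SE 0.38, limma adjusted p = 0.000307), Cd22 by 2.18 (SE 0.42, adjusted p = 0.00314), Cd79a by 2.02 (SE 0.45, adjusted p = 0.00801), Mzb1 by 1.89 (SE 0.39, adjusted p = 0.00474) and Cd79b by 1.86 (SE 0.40, adjusted p = 0.00669). Jchain differed by 1.02 (SE 0.41, limma adjusted p = 0.104) and Derl3 by 0.37 (SE 0.44, adjusted p = 0.597). The median over the 7 members was 1.89, against 0.01 over all genes tested. These 5 calls held in 11 of 11 fits that left out 1 WT library each, and without W18F22 the 5 differences were 2.18 for Ms4a1, 1.73 for Cd22, 1.60 for Cd79a, 1.63 for Mzb1 and 1.48 for Cd79b. By limma 1059 genes were higher and 480 lower in old WT adipose tissue, by edgeR on recovered reads 886 and 820, and by DESeq2 1273 and 1423, and the same 5 members were called higher by each tool. Fewer B cells in young tissue and less RNA of these genes per cell cannot be told apart in bulk libraries.

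In KO adipose tissue the estimated age difference was smaller than in WT mice for 6 members, and for Derl3 it had the opposite sign. Ms4a1 was at 0.365, 0.243, 0.254, 0, 0.860 and 0.204 CPM in the young KO libraries (60 reads in all) and at 2.17, 7.46, 2.09, 1.5 and 7.22 CPM in the old ones. The age groups did not overlap. Cd79a ran from 1.15 to 2.53 CPM (median 1.76) in young KO libraries and was at 4.39, 11.2, 3.82, 4.45 and 9.95 CPM in old ones, also without overlap. Cd22 ran from 1.93 to 5.54 CPM (median 3.07) and was at 10.5, 10.1, 2.77, 9.36 and 19.5 CPM, with 4 of 5 old libraries above the young range. For Cd79b the young range was 0.940 to 4.03 CPM (median 1.73) and the old values were 4.12, 11.2, 2.06, 3.62 and 9.93 CPM, with 3 of 5 above it. K18F27 and K18F30 were the highest old KO libraries for Cd79a, Cd79b and Ms4a1, and K18F28 was the lowest for Cd22, Cd79a and Cd79b.

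Plasma cell genes overlapped between ages in KO adipose tissue. Jchain ran from 30.3 to 103 CPM (median 77.1) in young KO libraries and was at 149.5, 95.9, 38.2, 71.2 and 129 CPM in old ones. Mzb1 ran from 1.06 to 4.33 CPM (median 1.85) and was at 4.37, 5.27, 1.70, 3.17 and 4.35 CPM. Derl3 ran from 1.37 to 5.39 CPM (median 3.85) in young KO libraries and from 1.90 to 2.94 CPM (median 2.03) in old ones, so the lower median here was the old one. In the young KO libraries with Crisp1 Derl3 was at 5.39, 1.37 and 3.72 CPM, and in the others at 5.26, 1.78 and 3.98 CPM.

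By the same limma fit, 3 of 7 members rose with age in KO adipose tissue, where 14.2% of genes were called and 10.5% were called higher. Ms4a1 rose by 1.77 (SE 0.38, limma adjusted p = 0.00609), Cd79a by 1.40 (SE 0.45, adjusted p = 0.0424) and Cd22 by 1.29 (SE 0.42, adjusted p = 0.0454). Cd79b differed by 1.09 (adjusted p = 0.0675), Mzb1 by 0.60 (adjusted p = 0.293), Jchain by 0.37 (adjusted p = 0.558) and Derl3 by -0.43 (adjusted p = 0.520). The median over the members was 1.09, against 0.06 over all genes tested. The calls for Cd22 and Cd79a were each kept in 3 of 11 fits that left out 1 KO library, and that for Ms4a1 in 11 of 11. The count fell to 1 without the libraries with Xist, without those with Crisp1, and without any of K18F26, K18F27, K18F29, K18F30, K5F4284 or K5F4285, and rose to 4 with edgeR, DESeq2 or without K18F28. By limma 1497 genes were higher and 536 lower, by edgeR 997 and 1265, and by DESeq2 1314 and 1983.

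Whether KO and WT adipose tissue differed was asked at each age. At 5 months 0 of 7 members were called, where 0.105% of genes were and 0.035% were called higher in KO. The limma differences of KO from WT were 0.14 for Cd22, -0.52 for Cd79a, -0.47 for Cd79b, -0.64 for Ms4a1, 0.50 for Jchain, 0.25 for Mzb1 and 0.40 for Derl3, with SE of 0.36 to 0.43 and no member under an unadjusted p of 0.05. The median of Ms4a1 was 0.248 CPM in KO against 1.08 CPM in WT tissue, and 4 of 6 KO libraries lay below all the WT ones. At this level the Ms4a1 values rest on 0 to 52 reads per library.

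At 20 months 0 of 7 members were called by limma, edgeR or DESeq2, in a comparison where limma called 0% of genes and 321 genes had an unadjusted p under 0.05. All 7 members were lower in KO on average. By limma the differences were -1.45 for Ms4a1 (unadjusted p = 0.00148), -1.23 for Cd79b (unadjusted p = 0.00738), -1.14 for Cd79a (unadjusted p = 0.0238), -1.05 for Mzb1 (unadjusted p = 0.0167) and -0.76 for Cd22 (unadjusted p = 0.101), each with a limma adjusted p of 1. Jchain differed by -0.15 and Derl3 by -0.39. For Ms4a1, Cd79a and Cd79b 3 of 5 KO libraries lay below every WT library, and K18F27 and K18F30 lay inside the WT range. The median over the members was -1.05, against 0.01 over all genes, but the comparison shares its old WT libraries, W18F22 included, with the age comparison in WT mice. Without W18F22 the differences were smaller in size for Ms4a1 (-1.04), Cd79b (-0.85), Cd79a (-0.72), Mzb1 (-0.79) and Cd22 (-0.31), and Jchain turned to 0.08.

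The difference between the age effects of the 2 genotypes was tested as the interaction, and 0 of 7 members were called, where 0% of genes were (407 genes had an unadjusted p under 0.05, and edgeR called 0 and DESeq2 6 genes). All 7 estimates were below 0, from -0.62 for Cd79a to -1.30 for Mzb1 (unadjusted p = 0.0268, limma adjusted p = 0.998). The larger count of calls in WT than in KO mice is thus not shown to differ between genotypes.

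**Figure D2:**
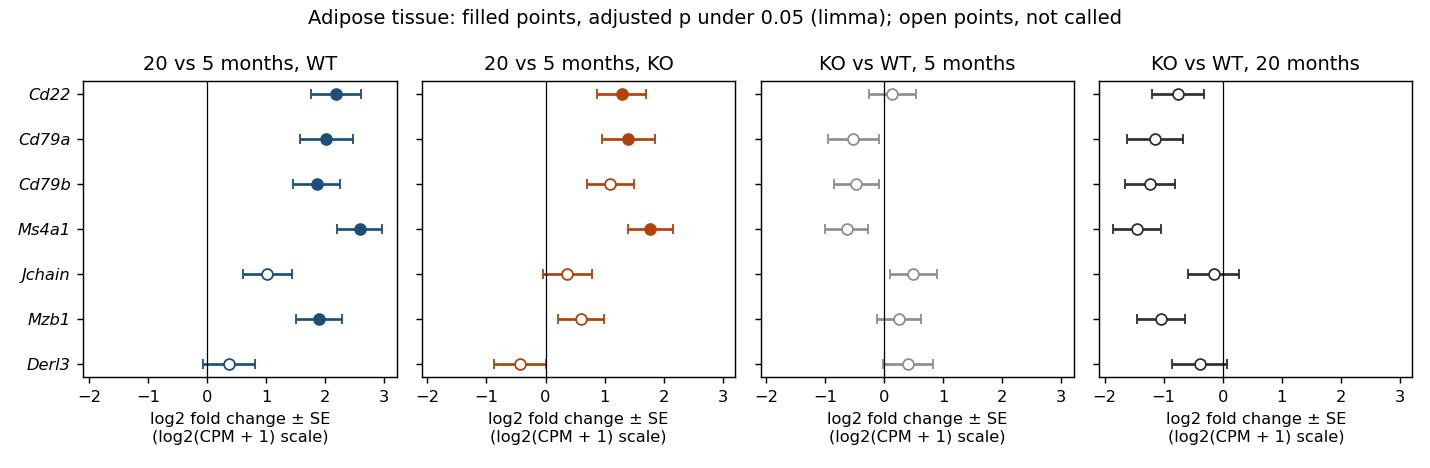
Differences of the 7 members in 4 adipose comparisons (log2 fold change on the log2(CPM + 1) scale, bars 1 SE), filled where the limma adjusted p is under 0.05. Filled points appear in the age comparisons, 5 in WT and 3 in KO mice, and in neither comparison of KO with WT.

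Other B cell genes moved with the members. Of a list of 28 such genes, 21 were tested in adipose tissue and 6 immunoglobulin constant genes were listed at 0 in every library. In WT mice 18 of the 21 rose with age and 0 fell, with a median of 1.45, where 7.41% of all genes tested were called higher. The count was 11 without W18F22 (median 1.09) and 9 without the libraries with Xist. Among the larger rises by limma were Fcmr, an IgM receptor (2.36, adjusted p = 0.000204), Pax5, the factor that holds B cell identity (2.26, adjusted p = 0.000572), Spib, an ETS factor (1.89, adjusted p = 0.00291), Pou2af1, a co-activator of octamer-binding factors (1.83, adjusted p = 0.00483), and Tnfrsf13c, the receptor for the survival factor BAFF (1.72, adjusted p = 0.00165). In KO mice 12 of 21 rose and 0 fell, with a median of 0.98, where 10.5% of all genes tested were called higher. Among these 12 were by limma Cd180, a Toll-like receptor relative (1.64, adjusted p = 0.0281), and Cxcr5, the receptor for Cxcl13 (1.20, adjusted p = 0.0152). This KO count was less stable: it ran from 0 (without K18F30) to 14 (without K18F28 or without K5F5218) with 1 library left out, and the libraries that lowered it by more than 1.5 times were K18F26 (2), K18F27 (5), K18F29 (3), K18F30, K5F4284 (3), K5F4285 (5) and K5F5248 (7). The list median stayed between 0.88 and 1.12 in those fits. Of the 21 genes, 0 differed between KO and WT at either age, with medians of -0.22 at 5 months and -0.86 at 20 months.

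Plasma cell genes outside the 7 members gave fewer calls. Of 21 listed, 15 were tested, and the 5 listed antibody heavy chain genes were at 0 in every library. In WT mice 2 of 15 rose with age by limma, Prdm1, the factor that drives plasma cell formation (1.17, adjusted p = 0.00540), and Edem1, which takes part in the disposal of misfolded glycoproteins (0.84, adjusted p = 0.00266). In KO mice 4 rose, Sdc1, the plasma cell surface protein CD138 that epithelia also make (1.31, adjusted p = 0.00870), Prdm1 (1.08, adjusted p = 0.00762), Edem1 (0.84, adjusted p = 0.00303) and Sel1l, a partner of the same disposal pathway (0.56, adjusted p = 0.0393). Beside these counts, 7.41% and 10.5% of all genes tested were called higher in WT and KO mice. The list median was 0.12 in WT and -0.08 in KO mice. Xbp1, Hspa5, Derl1, Txndc5, Sel1l and Edem1 had adipose medians of 141.8, 330.0, 189, 99.5, 120.3 and 89.7 CPM, above the median of every member, and many secreting cell types make them.

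Among 13 genes for B cell recruitment and survival 9 were tested. Ltb, the lymphotoxin chain made by lymphocytes, rose with age in WT mice (1.57, limma adjusted p = 0.00453), and 0 rose in KO mice. Cxcl13, the chemokine that draws B cells into follicles, differed by -0.47 in WT and -1.05 in KO mice, and Tnfsf13b, which encodes BAFF, by -0.10 and 0.10, none of them called.

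Markers of T cells also moved with age in WT adipose tissue: 6 of 7 tested genes of the T cell list rose (4 without W18F22 and 1 without the libraries with Xist), and 0 in KO mice. Of all genes tested, 7.41% were called higher in WT and 10.5% in KO mice. In the interaction of genotype and age 0% of genes were called, so these T cell counts are not shown to differ between genotypes. The T cell list summed to 5.68 to 16.0 CPM in young WT and 17.4 to 74.5 CPM in old WT libraries. In KO libraries it summed to 15.7 to 28.2 CPM (young) and 22.1 to 34.2 CPM (old). The listed receptor constant genes Trac and Trbc2 were at 0 in every library. The B cell marker list summed to 5.11 to 23.6 CPM in young WT, 32.3 to 246.9 in old WT, 6.34 to 9.91 in young KO and 14.3 to 56.9 CPM in old KO libraries. Genes of lymph node stroma and follicular dendritic cells gave 0 calls of 5 tested in either age comparison, and their summed level was 37.9 to 171.6 CPM in young WT, 30.2 to 103.0 in old WT, 77.0 to 159 in young KO and 42.2 to 114.8 CPM in old KO libraries. Of these 7 listed genes, Cr2 and Fcer2a are also among the other B cell genes above. Mesothelial markers gave 1 of 5 lower in old WT mice, macrophage markers 0 of 5 in WT and 1 higher in KO mice, and adipocyte markers 0 of 4 in WT and 1 higher in KO mice. Among plasmacytoid dendritic cell markers 1 of 3 rose with age in both genotypes, Tcf4, a factor that many cell types make (0.85 in WT, limma adjusted p = 0.01003, and 0.79 in KO, adjusted p = 0.0141). The summed level of that list was 71.4 to 110.6 CPM in young WT and 126.8 to 146 CPM in old WT libraries, without overlap, and overlapped in KO libraries (60.4 to 142 and 114.7 to 132 CPM). The part of lymphocyte clusters or lymph node fragments in these differences was not tested.

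W18F22 stood apart in the old WT adipose group. Its B cell list summed to 246.9 CPM against 32.3 to 69.2 CPM in the other 4 libraries, and its plasma cell list to 212 against 57.7 to 165.8 CPM. The same library held 7.05 CPM of Cr2 (CD21) and 15.6 CPM of Fcer2a (CD23), genes of mature B cells and follicular dendritic cells, where the other 4 held 0.277 to 1.62 and 0.943 to 3.52 CPM. Cxcl13 was at 31.8 CPM in W18F22 and 6.41 to 17.7 CPM in the other 4, Cd3e, a T cell receptor chain, at 8.45 against 3.03 to 5.50 CPM, and Madcam1 at 0 against 0 to 0.0555 CPM. Ccl19 (1.11 CPM) and Glycam1 (0.409 CPM) lay within the range of the other 4, and Cxcl13 reached 102.0 CPM in adipose libraries of other groups. Ccl21a was at 47.1 CPM in W18F22 against 11.4 to 40.8 CPM in the other 4, and reached 158 CPM in other groups. The list of lymph node stroma and follicular dendritic cells summed to 103.0 CPM in W18F22 against 30.2 to 48.7 CPM. That sum reached 171.6 CPM in adipose libraries of other groups. Adipocyte markers summed to 4620.4 CPM in W18F22 and 6359 to 6904 CPM in the other 4.

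Across the 22 adipose libraries, with each group's mean removed, the members were correlated to different degrees. Pearson's r on log2(CPM + 1) was 0.82 between Cd79a and Ms4a1, 0.77 between Cd79a and Cd79b, 0.71 to 0.78 for the other pairs of B cell genes, and 0.85 between Jchain and Mzb1. Pairs of a B cell gene with Jchain had r of 0.63 to 0.64 for Cd22, Cd79a and Cd79b and 0.43 for Ms4a1. Mzb1 had r of 0.58 with Ms4a1, 0.65 with Cd22, 0.75 with Cd79a and 0.78 with Cd79b, the last 2 above the r of 0.73 between Cd22 and Cd79a. Derl3 had r of 0.26 (with Jchain) to 0.61 (with Cd79a) with the other 6. Without the 2 libraries farthest from the median, r was 0.75 for Cd79a and Ms4a1, 0.85 for Jchain and Mzb1, and 0.33 for Jchain and Ms4a1. These values describe 22 libraries whose points share library size and tissue sampling, and they carry no test.

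**Figure D3:**
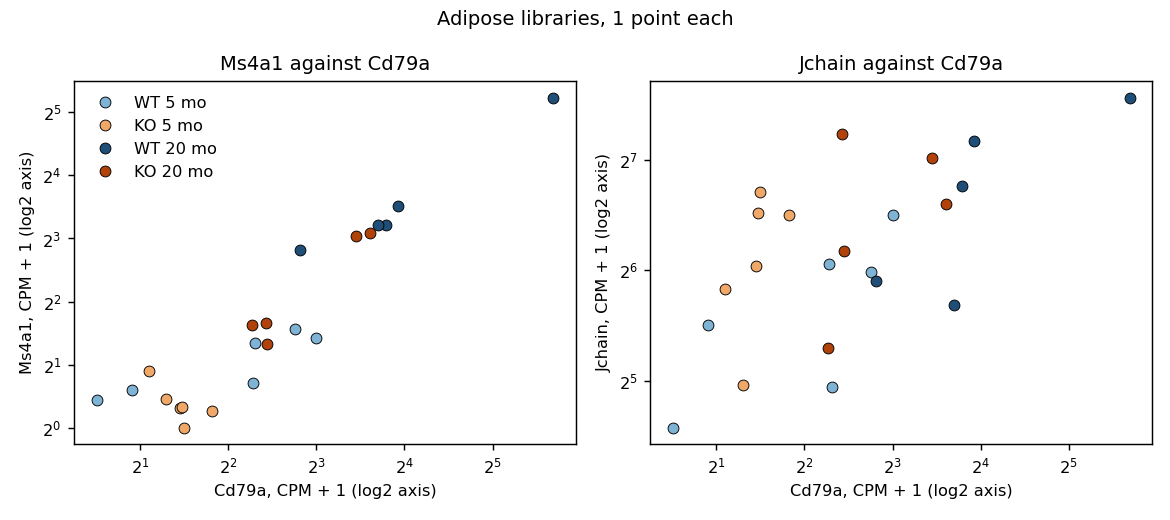
Each adipose library by Cd79a (x axis) and Ms4a1 or Jchain (y axis), all as CPM + 1 on log2 axes, with colours for the 4 groups. Ms4a1 follows Cd79a across libraries, up to W18F22 at the upper right, while young KO libraries with 1.15 to 2.53 CPM of Cd79a span 30.3 to 103 CPM of Jchain.

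Ranked by the same r among all genes tested in adipose tissue, the genes most like Cd79a included Pou2af1 (0.89), Ly6d (0.87), Siglecg (0.86) and Cxcr5 (0.84), and without 2 libraries r was 0.78 to 0.82. The 5 most like Jchain were Pla2g4b (0.77), Pou2af1 (0.74), Blk (0.74), Map11 (0.72) and A630001G21Rik (0.71), with r of 0.62 to 0.73 without 2 libraries.

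Per kb of exon, Jchain had the highest adipose level of the members, with medians of 21.2 CPM per kb in young WT and 42.7 in old WT libraries, 30.6 in young KO and 38.1 CPM per kb in old KO libraries. Cd79a, Cd79b and Mzb1 were at 8.83, 7.23 and 6.97 CPM per kb in old WT libraries, above Cd22 (2.84), Ms4a1 (1.34) and Derl3 (1.21). In young WT libraries Cd79a (2.68) and Cd79b (1.84) stood above Mzb1 (1.08), Derl3 (0.888), Cd22 (0.519) and Ms4a1 (0.175 CPM per kb).

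Over the 12 groups, old WT adipose tissue had the highest median of each member except Derl3, whose highest median was in young KO adipose tissue (3.85 CPM). Old KO adipose tissue came next for Cd22 (10.1 CPM), Cd79a (4.45), Cd79b (4.12), Ms4a1 (2.17), Jchain (95.9) and Mzb1 (4.35 CPM). Jchain was higher in each of the 4 adipose groups than in any liver or muscle group, and its lowest adipose library (22.9 CPM) was above its highest liver library (9.32 CPM). Neighbouring groups in the order of medians had overlapping ranges in 11 of 11 steps for every other member and in 10 of 11 for Jchain, the exception being the step from young WT adipose tissue to old WT liver. For Cd79b and Ms4a1, old WT liver (3.22 and 1.43 CPM) ranked above young WT adipose tissue (2.63 and 1.08 CPM) on the deposited scale. That scale differs between tissues, and in reads the order was reversed. Median reads of Cd79b and Ms4a1 were 57 and 22 in old WT liver, against 69.5 and 26.5 in young WT adipose tissue. Small differences in level between tissues are therefore not read as results here.

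**Figure D4:**
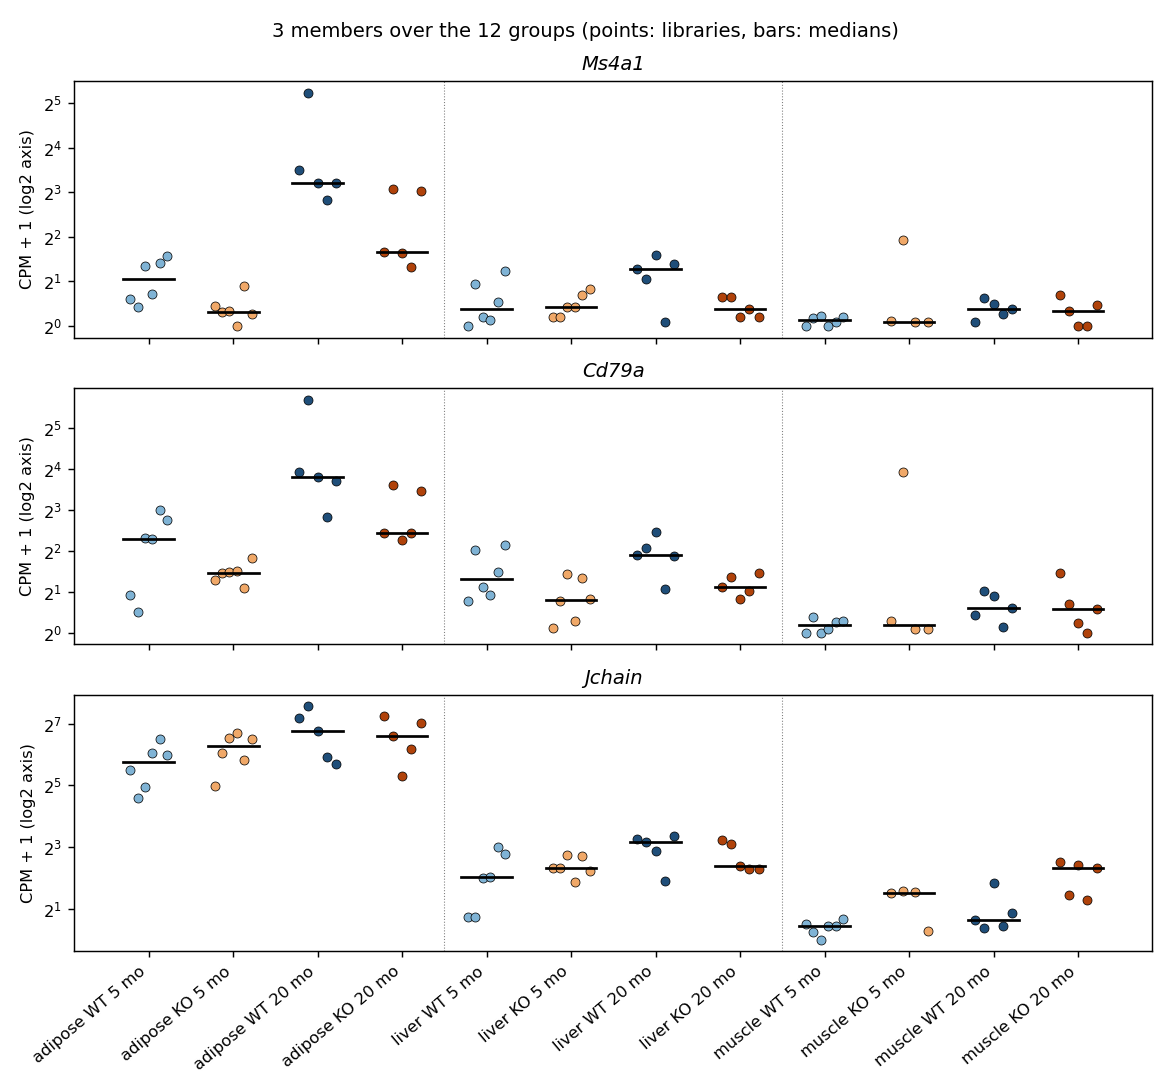
Ms4a1, Cd79a and Jchain in all 64 libraries (CPM + 1, log2 axes), by tissue, genotype and age, with bars at medians. Jchain lies at 22.9 CPM or more in every adipose library and under 10 CPM elsewhere, and 1 young KO muscle library stands apart for Cd79a (14.3 CPM) and Ms4a1 (2.81 CPM).

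In young WT mice 4 members passed the filter of the fit over the 3 tissues, and Ms4a1, Mzb1 and Derl3 did not. Of the 4, 3 were higher in adipose tissue than in liver by limma, Jchain by 3.72 (adjusted p = 3.9e-08), Cd79b by 0.72 (adjusted p = 0.0176) and Cd22 by 0.60 (adjusted p = 0.0277), while Cd79a differed by 0.55 (adjusted p = 0.180). Over all genes tested, 35.7% were called higher in adipose tissue and 69.7% in either direction. Without the libraries with Xist the call remained for Jchain. The deposited scale factor differs between tissues, and these differences include it. Against muscle all 4 were higher in adipose tissue, Jchain by 5.22, Cd79b by 1.87, Cd79a by 1.79 and Cd22 by 1.65 (limma adjusted p of 0.000197 or less), where 68.9% of genes were called and 38.8% higher. Their highest values in young WT muscle were 0.582, 0.206, 0.308 and 0.582 CPM. They thus passed the filter of 1 CPM through adipose tissue and liver, and the shared direction against muscle is not independent of the filter.

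In liver 6 members were tested, Mzb1 being too low, and 0 were called in any of the 4 comparisons or in the interaction. The levels were low: Jchain medians were 3.04 CPM in young WT, 3.96 in young KO, 7.97 in old WT and 4.25 CPM in old KO libraries, and Cd79a medians were 1.47, 0.752, 2.73 and 1.18 CPM. In old liver Cd79b was at 1.76, 3.22, 3.74, 1.97 and 4.22 CPM in WT and at 1.54, 1.48, 0.972, 0.920 and 1.60 CPM in KO libraries, and the groups did not overlap. Cd22 was at 2.09 to 2.62 CPM in old WT and 1.18 to 1.99 CPM in old KO liver, also without overlap. How many of all genes show no overlap was not counted. By limma 750 of 12924 genes had an unadjusted p under 0.05 in this comparison.

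By limma these differences of KO from WT in old liver were -0.76 for Cd79b (unadjusted p = 0.0119, adjusted p = 0.750) and -0.36 for Cd22 (unadjusted p = 0.0566, adjusted p = 0.842), in a comparison where 0.0232% of genes were called and 0.00774% were called higher. Derl3 ran from 0.562 to 5.67 CPM in old WT and 0.103 to 0.874 CPM in old KO liver, a difference of -0.88 (adjusted p = 0.794). The age comparison in WT liver, with 7.19% of genes called and 2.83% called higher, gave 1.03 for Jchain (SE 0.36, limma adjusted p = 0.0822), which was called in 3 of 11 fits with 1 library left out. At 5 months KO differed from WT liver by -0.61 for Cd79a (unadjusted p = 0.0326, adjusted p = 0.650), where 0.0696% of genes were called and 0.031% called higher, and the age comparison in KO liver, with 2.99% of genes called and 1.68% called higher, gave 0.30 for Jchain (adjusted p = 0.684).

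In skeletal muscle Jchain alone passed the filter. Mzb1 medians there were 0.450 to 0.761 CPM, against 0.267 to 0.455 CPM in the liver groups. Among WT muscle libraries only W18S45 exceeded 1 CPM of Jchain, so this gene passed the filter through KO libraries. Its differences of KO from WT in muscle are thus not independent of the filter. Jchain was at 0.414, 0.185, 0, 0.343, 0.345 and 0.582 CPM in young WT muscle and at 1.85, 1.97, 1.90 and 0.199 CPM in young KO muscle. At 20 months it was at 0.541, 0.303, 2.55, 0.350 and 0.812 CPM in WT and 4.72, 1.71, 4.36, 1.42 and 4.03 CPM in KO libraries. In the young group 3 of 4 KO libraries and in the old group 3 of 5 lay above every WT library of the same age. The limma differences were 0.84 at 5 months (SE 0.31, unadjusted p = 0.0144, adjusted p = 0.9999) and 1.17 at 20 months (SE 0.31, unadjusted p = 0.00113, adjusted p = 0.295), so Jchain was not called in either, where 0% and 0.0302% of genes were (at 20 months 0.0227% were called higher). Without K5S4285 the 5-month difference was 0.73, and without W5S5299, the library with Crisp1, 0.90. On reads edgeR gave 2.20 and 1.84 for these comparisons, with adjusted p of 0.751 and 0.259. Jchain was not called with age in WT (0.45, adjusted p = 0.290, 18.6% of genes called and 10.9% called higher) or KO muscle (0.78, adjusted p = 0.146, 5.57% called and 3.6% called higher).

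The young KO muscle library K5S4285 stood apart for the B cell genes. It held 14.3 CPM of Cd79a (254 reads), 10.4 of Cd79b, 10.1 of Cd22, 2.81 of Ms4a1 and 1.97 CPM of Mzb1, while the other 3 libraries of the group held at most 0.213, 0.380, 0.127, 0.0711 and 0.497 CPM. Derl3 was at 0.168 CPM there, and Jchain at 1.97 CPM lay beside 2 other libraries of the group. Pax5 (4.32 CPM), Fcmr (5.78) and Spib (4.72 CPM) were high in the same library, against at most 0.569, 0.638 and 0.508 CPM in any of the other 19 muscle libraries.

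In K5S4285 the T cell marker list summed to 25.3 CPM against at most 3.55 CPM in the other 19 muscle libraries, and the list of lymph node stroma and follicular dendritic cells to 73.9 against at most 34.8 CPM. Glycam1, a ligand made by lymph node venules, was at 4.72 CPM in K5S4285 and at most 0.0686 CPM elsewhere in muscle. Ccl21a and Ccl19, chemokines of lymphoid stroma, were at 40.9 and 3.71 CPM against at most 10.5 and 0.266 CPM, and Madcam1 was at 0. Cxcl13, of the same list, was at 19.4 CPM, within the range of the other muscle libraries (up to 28.5 CPM). Adipocyte markers summed to 175.5 CPM there against 7.14 to 69.9 CPM. The adipose and liver libraries with the same number in their codes had 1.74 and 0.722 CPM of Cd79a. The part of a piece of lymph node or fat in the muscle sample was not tested.

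**Figure D5:**
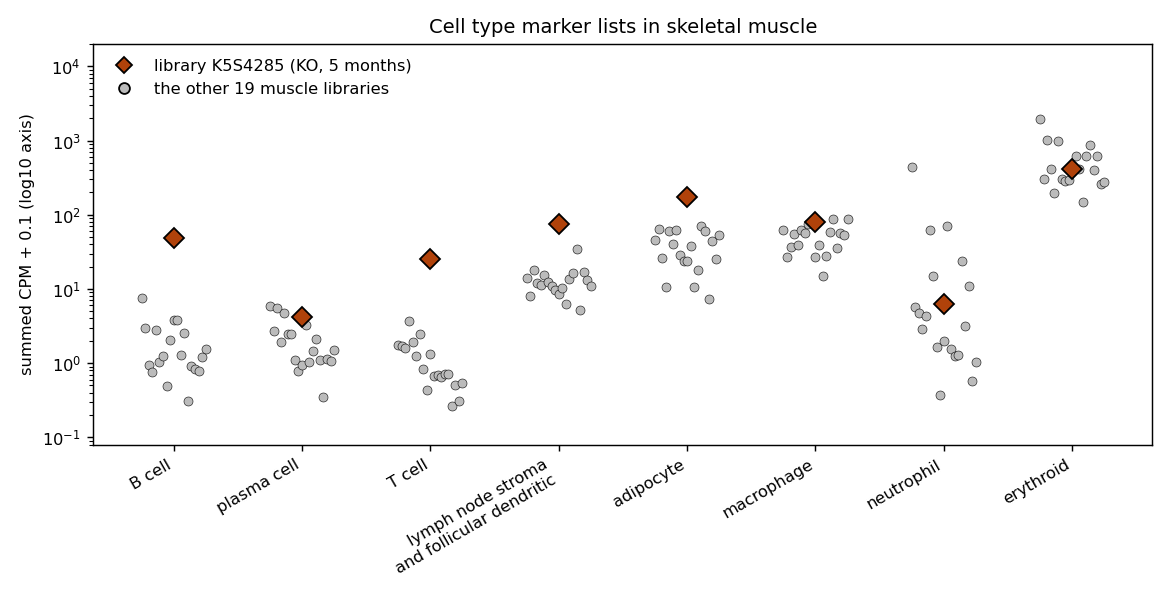
Summed level of 8 cell type marker lists in the 20 muscle libraries (summed CPM + 0.1, log10 axis), with K5S4285 as a diamond and the other 19 libraries as circles. K5S4285 is the highest library for the B cell (49.0 CPM), T cell (25.3), lymph node (73.9) and adipocyte (175.5 CPM) lists, and lies within the range of the others for the plasma cell list (4.10 CPM).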

How the data were processed

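RNA sequencing of mouse tissues was analysed. Per the labels' protocols, mRNA was purified from total RNA on oligo-dT beads and made into directional Illumina libraries. Adipose tissue and muscle were extracted with a lipid tissue kit, liver with another column kit. The deposited table holds 1 signal column per library, headed CPM by the authors. Column sums of this deposited signal ran from 0.529 to 0.753 M in adipose, 1.18 to 1.64 M in liver and 1.08 to 1.32 M in muscle libraries. Each library thus carries a scale factor of unstated origin, which differs between tissues. Every value was a whole multiple of 1 read (tolerance 0.01 reads, 100% whole), which gave the depths stated. The submitters' processing notes name GRCm38.p6 and mm10. Aligner, annotation and use of strand are not given in the sources used here. IDs were named through a RefSeq gene table of GRCm38.p6, which matched 35336 of 36332 IDs. Levels per kb use exon unions of GENCODE, which may differ from the annotation behind the table.

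Genes were kept if they exceeded 1 CPM in as many libraries as the smallest group of the fit holds, or more. On log2(CPM + 1), limma 3.58.1 under R 4.3.3 fitted group means with an intensity trend, and p-values were adjusted over all genes tested by Benjamini-Hochberg. This scale understates changes of low genes. edgeR 4.0.16 and DESeq2 1.42.0 on recovered reads, a pseudocount of 0.1, no filter, TMM factors, a sex covariate, and fits without Xist libraries, without adipose Crisp1 libraries or without 1 library each were alternatives. The tests were checked on simulated data. No 2 libraries agreed within sampling noise (lowest chi-square per degree of freedom 14.5). Members and lists were chosen with earlier results of these data known. Genes outside the members were named by a rule: up to 6 per list by size among called genes with a mean of 1 CPM or more, any with an adipose median above every member, and the 5 most like Cd79a and Jchain. A result that falls under this rule is not reported here. Genes named to describe a single library were chosen after their values were seen.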

Additional observations from a re-analysis of the deposited data

Results flagged for a closer look

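A library was picked out where its gap to the nearest library of its group exceeded the 95% critical share of the group's range (Dixon's ratio). This was so for 19 of 84 sets of 1 gene in 1 group, and several of these sets share a library. The chance rate of about 1 in 20 holds for normally distributed values. It was not tested for these CPM values, some of which rest on few reads (5 for Cd79b in W18S66), so no excess over chance is read from the count. K5S4285 in young KO muscle accounted for 5, with Cd22 at 10.1, Cd79a at 14.3, Cd79b at 10.4, Ms4a1 at 2.81 and Mzb1 at 1.97 CPM. W18F22 in old WT adipose tissue accounted for 4, with Cd22 at 57.9, Cd79a at 50.7, Cd79b at 41.3 and Ms4a1 at 36.7 CPM. In adipose tissue W5F5277 was high for Cd79b (7.35 CPM), W5F5299 and K18F28 were high for Derl3 (13.7 and 2.94 CPM), and K5F5118 was high for Mzb1 (4.33 CPM). In liver W5L5042 was high for Derl3 (2.47 CPM) and K18L09 for Mzb1 (1.33 CPM). In muscle K5S5118 was low (0.199 CPM) and W18S45 high (2.55 CPM) for Jchain, W18S66 was low for Cd79b (0.25 CPM) and W18S41 low for Mzb1 (0.135 CPM).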

How the results depend on the processing

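The 5 members called higher with age in WT adipose tissue stayed at a count of 5 in every alternative and every fit with 1 library left out. In KO adipose tissue the count of 3 fell to 1 with no filter on low values, without the libraries with Xist and without those with Crisp1, and ran from 1 to 4 with 1 library left out. In WT liver the age count of 0 ran from 0 to 2 with 1 library left out. The count of 3 for adipose tissue against liver fell to 1 without the libraries with Xist and ran from 2 to 6, and that of 4 against muscle rose to 7 with no filter, which tests 7 members, and ran from 4 to 6. The cause of the other changes was not tested. For Derl3, KO against WT at 5 months in adipose tissue (0.40) turned to -0.0128 by edgeR and -0.0125 by DESeq2, and its age difference in WT mice (0.37) to -0.17 by edgeR and -0.17 by DESeq2. Jchain, KO against WT at 20 months (-0.15), ran from -0.39 to 0.14 with 1 library left out, the values above 0 being 0.14 without K18F28 and 0.08 without W18F22. Counts over all genes moved by more than 1.5 times for age in WT adipose tissue (1539 by limma, 2696 by DESeq2, 3497 without Crisp1 libraries, 709 without Xist libraries, 869 with a sex covariate), age in KO (2033, with 3297 by DESeq2 and 3277 without Xist libraries) and KO against WT at 5 months (15, with 9 by edgeR, 7 with no filter, 304 by DESeq2, 534 without Xist libraries and 34 with a sex covariate), and from 0 to 10 by DESeq2 for KO against WT at 20 months. In liver and muscle they moved as much: 929 (414 to 1459 over the tools and settings) for age in WT liver, 386 (245 to 778) in KO liver, 2463 (855 to 3080) in WT muscle and 737 (182 to 1434) in KO muscle, and for KO against WT 9 (1 to 47) and 3 (1 to 18) in liver and 0 (0 to 5) and 4 (2 to 42) in muscle at 5 and 20 months. The list of other B cell genes, an alternative chosen after seeing the data, moved in KO mice from 12 to 2 with no filter, 4 with a sex covariate, 3 without Crisp1 libraries and 7 without Xist libraries. The labels do not say that young WT libraries of different tissues with 1 number came from 1 mouse. Xist was above 5 CPM in all 3 tissues of 2 numbers and in no other young WT library. Deviations of same-numbered libraries had r of -0.07 to 0.32 over 14 pairs (median 0.17, against -0.05 over 94 other pairs). With the mouse number as replicate block, adipose tissue against liver gave 4 members called, Cd79a (0.77, limma adjusted p = 0.0431) being added, and against muscle 4. Low levels limit liver and muscle: in muscle 6 of 7 members did not reach the filter.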
